A study of Homo sapiens with 4 samples.

Results

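The genes of cholesterol and fatty acid synthesis are described here in ribosome footprints of PANC-1 cells, an established line of human pancreatic ductal adenocarcinoma. A list of 35 genes was fixed by symbol and looked up by Ensembl identifier among the 20307 genes of the deposited table, where all 35 were found. The list was divided into 10 cytosolic enzymes, 20 enzymes of the endoplasmic reticulum (ER) membrane and 5 regulators of the sterol regulatory element-binding proteins (SREBPs). The libraries came from cells depleted of FBXO32 (2 libraries) and from negative control cells (2 libraries), grown in the same serum-containing medium. FBXO32 belongs to the F-box proteins, which pick the substrates of SCF ubiquitin ligases. The labels name no method of depletion and no clone. Whether the bioreplicates of a group came from separate cultures is not said in the labels, so the p-values rest on these libraries alone. For 10272 of the 11623 tested genes the spread behind p-value and SE was pooled across genes of like level. It was then not the spread between the gene's own libraries. The study looked for genes that FBXO32 controls in translation. No RNA-seq of these cells was used here, so a difference in footprints can lie in the mRNA level or in its translation.

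Cholesterol is built from acetyl-CoA, first by soluble enzymes that make mevalonate and its isoprenoid products, and then by enzymes of the ER membrane that close and trim the sterol rings. Fatty acids come from the same acetyl-CoA by ACLY, ACACA and FASN in the cytosol, and are then elongated, desaturated and activated at membranes. SREBPs are made as ER membrane proteins. When sterols are scarce, SCAP escorts them to the Golgi, where they are cut to release transcription factors for most of these genes, and when sterols are plentiful INSIG proteins hold SCAP in the ER. Tumour cells often run both pathways at high levels to supply membranes.

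The value of a gene in a library is its TPM, a share of the library's footprints scaled by gene length. TPM keeps no read depth, so no counting interval can be given. The columns read as depleted are headed KO and those read as controls NS, a reading that rests on these names. FBXO32 had 14.3 and 12.9 TPM in depleted libraries and 18.1 and 21.6 TPM in controls, and its difference (log2 fold change -0.51 ± 0.45, SE) was not past the limma threshold, with an adjusted p of 0.429. Of the markers chosen for the line, the keratin genes KRT8 and KRT18 and the vimentin gene VIM were abundant, while EPCAM and KRT7 stayed below 8 TPM. Of the 6 line markers, with KRT19 as the sixth, 3 fell, beside 19.5% of all tested genes. The log2 difference was -1.27 for KRT8 (limma adjusted p = 0.00574), -1.14 for VIM (0.00844) and -0.93 for KRT18 (0.0402). Without depleted replicate 2 these differences were -0.51, -0.38 and -0.18. With median-ratio scaling of the libraries VIM (limma adjusted p = 0.0727) and KRT18 (0.175) did not pass. KRT19 (-0.19), EPCAM (1.10, adjusted p = 0.0750) and KRT7 (0.87, 0.157) did not pass. Both depleted values of EPCAM and KRT7 lay above both controls. Of 10 markers of other cells, PTPRC, CD3E, CELA3A and GCG were listed at 0 in every library, and 2 reached 1 TPM in 2 libraries, the collagen gene COL1A1 and CD14. COL1A1 had 35.3 and 39.0 TPM in depleted libraries and 110.6 and 86.5 TPM in controls, and also fell (-1.37, limma adjusted p = 0.00578). These 2 markers summed to between 39.0 and 42.0 TPM in depleted libraries and between 88.0 and 111.7 TPM in controls, and the part of these and of the line markers in the results below was not tested.

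Of the 35 genes, 3 were higher and 4 lower in depleted cells, and 28 did not pass the test. The genes that rose were TM7SF2, a sterol reductase, and the SREBP regulators SCAP and INSIG2. Those that fell were FASN, ACLY, MVD and NSDHL, of which the first 3 are cytosolic enzymes. All 35 genes reached 1 TPM in at least 2 libraries, and the test was limma on log2(TPM + 1) across the 11623 genes that did so, with p-values adjusted over all of them and a threshold of 0.05. Over all tested genes, 6.21% were higher and 19.5% lower, 25.7% in all, against 8.57% and 11.4% of the 35. The share called is near that background and does not set these pathways apart. Both depleted values lay above both control values in 11 of the 35 genes and below them in 5, beside 26.8% and 37.6% of all tested genes. The median log2 fold change of the 35 was 0.17, and that of all tested genes -0.16. Without negative control replicate 1, limma called 0 of the 35, with 3.30% of all genes called. At an unadjusted p under 0.05 there were then 2 of the 35, beside 18.7% of all genes. Without depleted replicate 2 it called TM7SF2 and FASN, with 12.9% of all genes called, and without negative control replicate 2 it called TM7SF2, SCAP, FASN and MVD, with 15.5% called. In a pooled culture, fewer cells with footprints of a gene and fewer footprints per cell cannot be told apart.

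**Figure D1:**
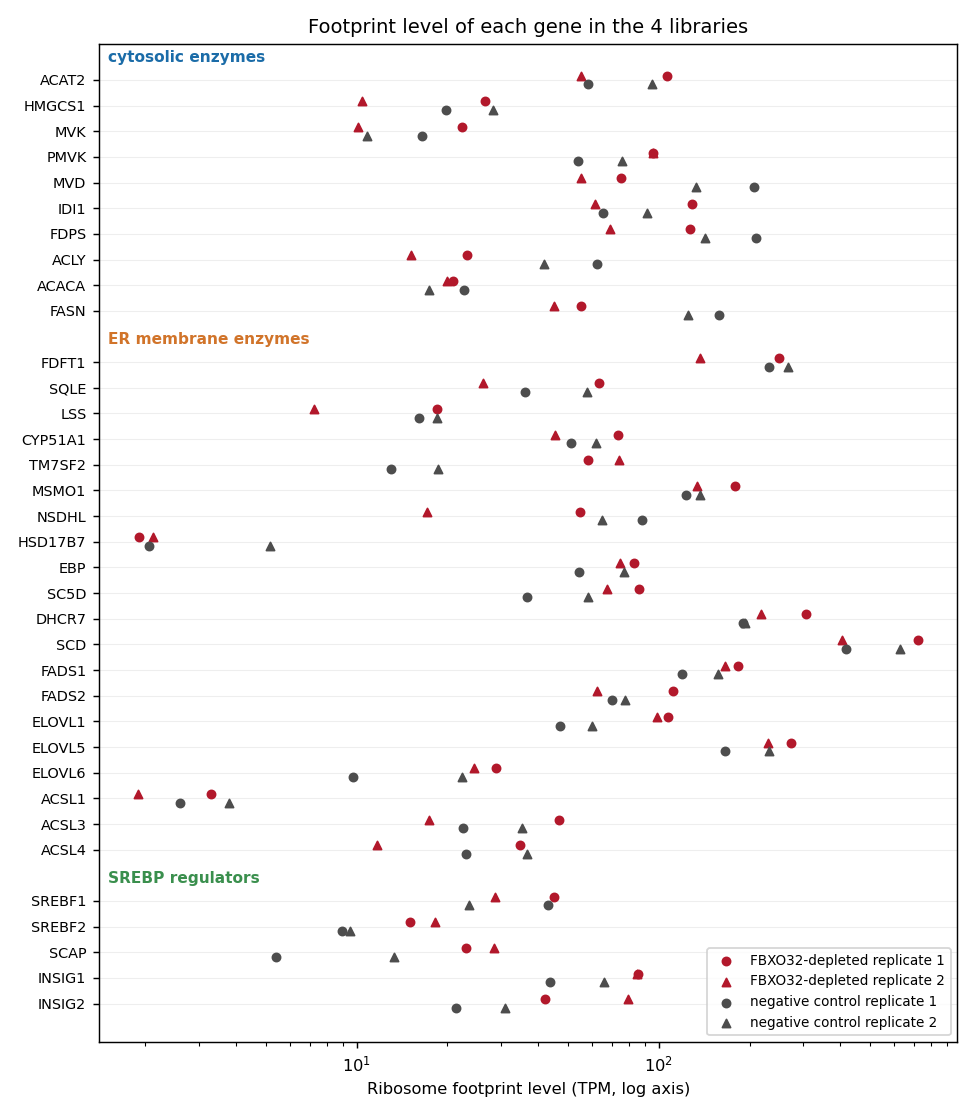
Footprint level in TPM on a log axis of each of the 35 genes, with the 2 FBXO32-depleted libraries in red above the 2 negative control libraries in grey, circles for replicate 1 and triangles for replicate 2. For TM7SF2 both depleted values (58.5 and 73.8 TPM) lie right of both control values (12.98 and 18.6 TPM), and for FASN both (55.2 and 45.0 TPM) lie left of them (158.6 and 124.7 TPM).

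**Figure D2:**
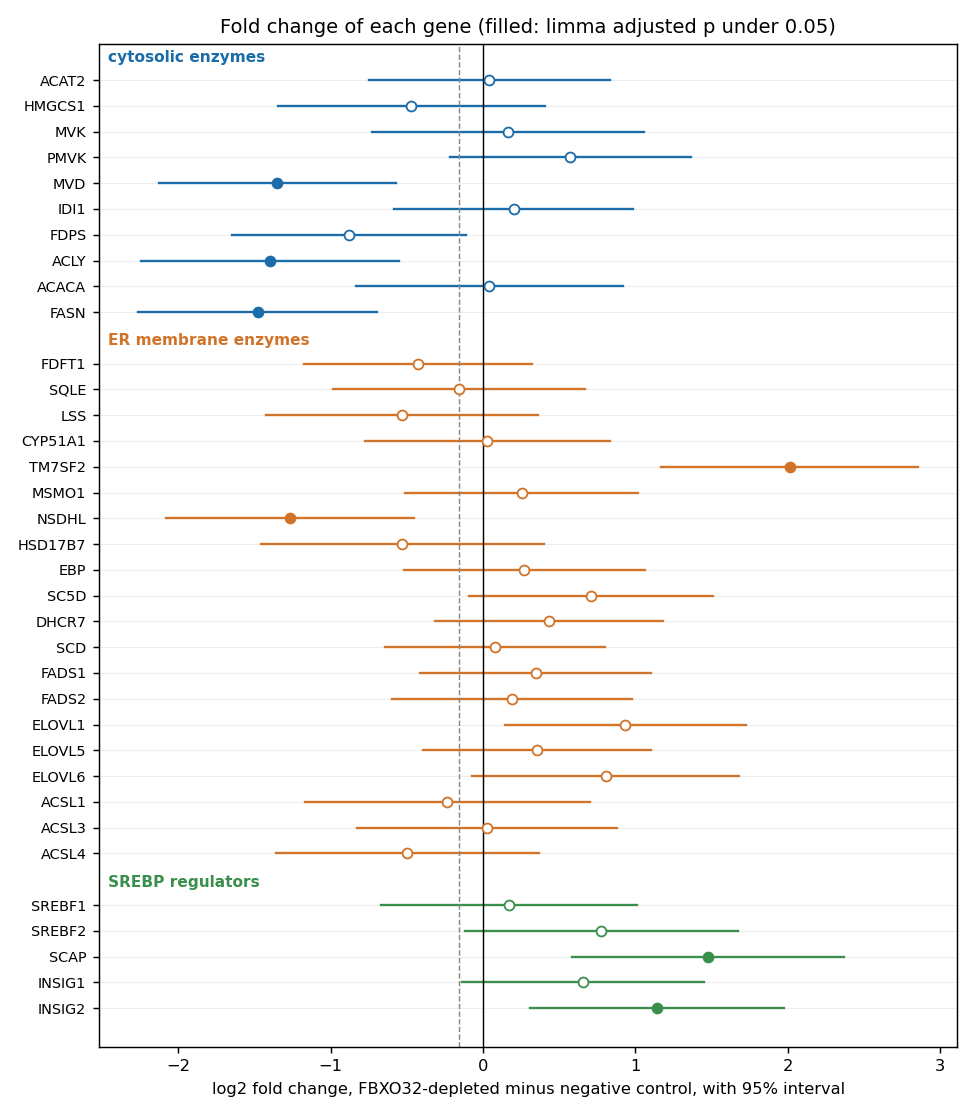
Log2 fold change of each gene, FBXO32-depleted minus negative control, with its 95% interval from limma, filled where the adjusted p is under 0.05. The dashed line marks the median of all tested genes (-0.16), and all 5 SREBP regulators lie to the right of 0.

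The SREBP regulators were the role class with the highest median fold change. Of 5, 2 rose, 3 were not past the test and 0 fell, around a median of 0.78 on the log2 scale. Beside them, 6.21% of all tested genes were higher and 19.5% lower, around a median of -0.16. SCAP, the escort that moves SREBPs out of the ER (GRCh38 chr3:47413694-47477126, minus strand), showed 23.1 and 28.5 TPM in depleted libraries and 5.41 and 13.3 TPM in controls. The groups did not overlap, and the 2 controls differed 2.45-fold. Its log2 fold change was 1.48 ± 0.45 (SE, limma adjusted p = 0.00782), and the call ended without negative control replicate 1 (0.90, adjusted p = 0.406), without depleted replicate 2 (0.0760) and without the filter on low values (0.0809). INSIG2, an ER protein that retains SCAP (chr2:118088452-118110997, plus strand), had 42.0 and 79.5 TPM in depleted libraries and 21.3 and 30.9 TPM in controls. All depleted values were higher, although the depleted libraries themselves differed, with replicate 2 well above replicate 1. Its log2 fold change was 1.14 ± 0.43 (adjusted p = 0.0328), a call that ended without any 1 library except depleted replicate 1 (adjusted p between 0.101 and 0.418) without the filter on low values (0.124) and with the coding-length trend described below removed (0.0642).

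The other regulators had positive fold changes that did not pass. INSIG1, the INSIG protein that SREBPs themselves induce, had 85.2 and 85.0 TPM in depleted libraries and 43.8 and 65.8 TPM in controls, a log2 difference of 0.65 ± 0.41 (limma adjusted p = 0.230). SREBF2, which encodes the SREBP mainly tied to cholesterol genes, had 15.0 and 18.2 TPM in depleted libraries and 8.95 and 9.53 TPM in controls, a log2 fold change of 0.78 ± 0.46 (adjusted p = 0.205). The groups did not overlap for either gene. SREBF1, whose products lean towards fatty acid genes, had 45.2 and 28.7 TPM in depleted libraries and 43.1 and 23.6 TPM in controls, so that its groups overlapped. In each library SREBF1 stood above SREBF2 in TPM, by 3.004- and 1.58-fold in depleted libraries and 4.82- and 2.47-fold in controls. INSIG1 exceeded INSIG2 by 2.03- and 1.07-fold in depleted libraries and by 2.06- and 2.13-fold in controls, the lowest ratio being that of depleted replicate 2. Summed over the 5 regulators, the level was 210.5 and 239.9 TPM in depleted libraries and 122.6 and 143.1 TPM in controls. These sums did not overlap, but an exact permutation test of 2 against 2 libraries cannot give a two-sided p below 0.333.

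Among the cytosolic enzymes 3 of 10 fell, 7 were not past the test and 0 rose, around a median of -0.22 on the log2 scale. By the same test 19.5% of all tested genes were lower and 6.21% higher. The class median is near that of all tested genes (-0.16). By unadjusted p under 0.05, limma gave 9 of all 35 genes, the 7 that passed and, among the others, FDPS and ELOVL1, beside 37.3% of all tested genes. In the mevalonate branch, MVD, which decarboxylates mevalonate diphosphate to the first isoprenoid (chr16:88651935-88663161, minus strand), fell. It had 75.3 and 55.3 TPM in depleted libraries and 207.3 and 133.2 TPM in controls. Both depleted values were under both controls, with means of 65.3 ± 14.2 TPM and 170.3 ± 52.4 TPM (SD, n = 2 each). Its log2 difference was -1.35 ± 0.40 (limma adjusted p = 0.00505), and the call ended without depleted replicate 2 (0.0833), without negative control replicate 1 (0.284) and without the filter on low values (0.0547).

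The enzymes beside MVD in the branch did not pass. FDPS, which joins isoprenoid units into farnesyl diphosphate, had 126.8 and 68.9 TPM in depleted libraries and 209.7 and 142.0 TPM in controls, a log2 difference of -0.88 ± 0.39 (limma adjusted p = 0.0819). Without depleted replicate 1 it passed (-1.31, adjusted p = 0.0218), and 8 annotated pseudogenes of FDPS could share its reads. PMVK, the kinase before MVD, had 95.6 and 95.9 TPM in depleted libraries and 54.1 and 75.6 TPM in controls. PMVK values lay above the controls where those of MVD and FDPS lay below them. The remaining mevalonate genes had overlapping groups. ACAT2, which makes acetoacetyl-CoA, had 106.4 and 55.3 TPM in depleted libraries and 58.4 and 95.1 TPM in controls, and its exons overlap those of TCP1 on the opposite strand. HMGCS1, which adds the third acetyl unit, had 26.7 and 10.4 TPM in depleted libraries and 19.8 and 28.2 TPM in controls. In both genes depleted replicate 2 lay below both controls, and depleted replicate 1 lay above both for ACAT2 and between them for HMGCS1. IDI1, the isomerase of isoprenoid units, had the order of ACAT2, with 129.1 and 61.6 TPM in depleted libraries and 65.3 and 91.8 TPM in controls. MVK, the mevalonate kinase, had 22.4 and 10.1 TPM in depleted libraries and 16.5 and 10.8 TPM in controls.

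Of the soluble enzymes of fatty acid synthesis, ACLY and FASN fell and ACACA did not pass. FASN, the multifunctional enzyme that builds palmitate (chr17:82078333-82098332, minus strand), had 55.2 and 45.0 TPM in depleted libraries and 158.6 and 124.7 TPM in controls. The depleted mean was 2.83-fold lower, with a log2 fold change of -1.48 ± 0.40 (SE, limma adjusted p = 0.00208). ACLY, which splits citrate to supply cytosolic acetyl-CoA (chr17:41866908-41930542, minus strand), had 23.2 and 15.2 TPM in depleted libraries and 62.5 and 41.7 TPM in controls. Its log2 fold change was -1.397 ± 0.43 (adjusted p = 0.00827). For both genes every depleted value was below every control. ACACA, the acetyl-CoA carboxylase that acts between them, had 20.9 and 20.0 TPM in depleted libraries and 22.6 and 17.4 TPM in controls, a log2 fold change of 0.04 with a 95% interval from -0.83 to 0.92. The level of FASN relative to ACACA was 2.65- and 2.25-fold in depleted libraries and 7.01- and 7.19-fold in controls. The FASN call ended without negative control replicate 1 (adjusted p = 0.172), and the ACLY call ended without any 1 library except depleted replicate 1 (0.0517 to 0.303) and without the filter on low values (0.0626). Both calls also ended with the coding-length trend described below removed (limma adjusted p = 0.531 for FASN and 0.296 for ACLY). Summed over the 10 cytosolic enzymes, the level was 682 and 438 TPM in depleted libraries and 875 and 761 TPM in controls.

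Among the ER membrane enzymes 1 of 20 rose, 1 fell and 18 were not past the test, around a median of 0.13 on the log2 scale. Of all tested genes 6.21% were higher and 19.5% lower, around a median of -0.16. The pair that passed stand close together in the sterol branch. TM7SF2, a reductase of the sterol C14 double bond (chr11:65111845-65116384, plus strand), had 58.5 and 73.8 TPM in depleted libraries and 12.98 and 18.6 TPM in controls. Both depleted values lay far above both control values. The log2 difference was 2.01 ± 0.43 (limma adjusted p = 5.30e-05), and without negative control replicate 1 it was 1.77 (0.0760). TM7SF2 exons overlap those of VPS51 on the same strand, and VPS51 had 70.8 and 65.1 TPM in depleted libraries and 78.4 and 70.6 TPM in controls. NSDHL, a dehydrogenase that works in removal of the C4 methyl groups (chrX:152830967-152869729, plus strand), had 55.0 and 17.1 TPM in depleted libraries and 88.4 and 64.7 TPM in controls. The depleted libraries differed 3.22-fold, more than those of any other of the 35 genes, and replicate 2 was the lower. Its log2 fold change was -1.27 ± 0.42 (adjusted p = 0.0138), and without depleted replicate 2 it was -0.45 (0.583). The call also ended without either control (0.408 without replicate 1 and 0.123 without replicate 2) and without the filter on low values (0.156). The level of TM7SF2 relative to NSDHL was 1.06- and 4.32-fold in depleted libraries and 0.147- and 0.287-fold in controls.

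Most sterol enzymes around this pair had overlapping groups. FDFT1, the squalene synthase that commits isoprenoids to sterols, had 251 and 137 TPM in depleted libraries and 233 and 268 TPM in controls. SQLE, the squalene epoxidase, had 63.5 and 26.2 TPM in depleted libraries and 36.1 and 57.9 TPM in controls. LSS, which closes the rings to lanosterol, had 18.4 and 7.24 TPM in depleted libraries and 16.2 and 18.5 TPM in controls. In these 3 genes depleted replicate 1 was close to the controls or above them, and depleted replicate 2 was below both controls. CYP51A1, the C14 demethylase before TM7SF2, had 73.5 and 45.2 TPM in depleted libraries and 51.3 and 62.3 TPM in controls. CYP51A1 exons overlap those of other annotated genes on the same strand, and 3 annotated pseudogenes could share its reads. MSMO1, which starts the C4 demethylation that NSDHL continues, had 179.4 and 134.5 TPM in depleted libraries and 123.3 and 137.3 TPM in controls. HSD17B7, the last enzyme of that demethylation, was low, with 1.91 and 2.12 TPM in depleted libraries and 2.06 and 5.17 TPM in controls, and 2 annotated pseudogenes could share its reads. Neither MSMO1 nor HSD17B7 passed.

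The last 3 enzymes towards cholesterol on the list had positive fold changes that did not pass. EBP, the sterol isomerase, had 82.7 and 74.4 TPM in depleted libraries and 54.7 and 76.8 TPM in controls. SC5D, the sterol C5 desaturase, had 86.2 and 67.5 TPM in depleted libraries and 36.8 and 58.2 TPM in controls, a log2 difference of 0.71 ± 0.41 (limma adjusted p = 0.194). DHCR7, the C7 reductase, had 308 and 218 TPM in depleted libraries and 190.1 and 193.1 TPM in controls, a log2 fold change of 0.43 ± 0.38 (adjusted p = 0.424). For SC5D and DHCR7 both depleted values lay above both controls, and for EBP they did not.

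None of the 9 membrane enzymes of the fatty acid branch passed by limma, with 1, ELOVL1, at an unadjusted p under 0.05, where 37.3% of all tested genes stood. SCD, the desaturase that makes oleate, was the most abundant of the 35 genes, with 725 and 403 TPM in depleted libraries and 417 and 631 TPM in controls. Its groups overlapped, and its level relative to FASN was 13.1- and 8.97-fold in depleted libraries and 2.63- and 5.06-fold in controls. For SCD too, 1 annotated pseudogene could share reads. ELOVL1, an elongase of very long chains, had 107.4 and 98.5 TPM in depleted libraries and 47.3 and 60.3 TPM in controls, a log2 difference of 0.93 ± 0.40 (limma adjusted p = 0.0715). With median-ratio scaling of the libraries ELOVL1 passed (1.13, adjusted p = 0.0281). The elongases ELOVL6, which extends palmitate, and ELOVL5, which extends polyunsaturated chains, had log2 fold changes of 0.80 and 0.36. ELOVL6 had 28.9 and 24.5 TPM in depleted libraries and 9.71 and 22.3 TPM in controls. ELOVL5 had 273 and 231 TPM in depleted libraries and 165.8 and 232 TPM in controls. Depleted values of ELOVL6 lay above both controls, and those of ELOVL5 overlapped them.

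The desaturases FADS1 and FADS2, which act in turn on polyunsaturated chains, are neighbours with overlapping exons on opposite strands of chromosome 11. FADS1 had 182.5 and 165.7 TPM in depleted libraries and 119.1 and 156.9 TPM in controls. FADS2 had 111.9 and 62.7 TPM in depleted libraries and 69.9 and 77.1 TPM in controls. FADS2 exons also overlap those of FEN1 on the same strand, and 1 annotated pseudogene could share its reads. The groups overlapped for FADS2, and both depleted values of FADS1 lay above its controls. FADS1 was the higher of the pair in every library, by 1.63- and 2.64-fold in depleted libraries and 1.70- and 2.03-fold in controls. The acyl-CoA synthetases ACSL3 and ACSL4, which activate fatty acids, had overlapping groups. ACSL3 had 47.0 and 17.4 TPM in depleted libraries and 22.5 and 35.3 TPM in controls. ACSL4, known for its part in ferroptosis, had 34.9 and 11.7 TPM in depleted libraries and 23.0 and 36.7 TPM in controls. Its exons overlap those of KCNE5 on the same strand. ACSL4 passed only without depleted replicate 1 (log2 fold change -1.25, limma adjusted p = 0.0446) among the alternatives tried. ACSL1, a further synthetase, stayed between 1.89 and 3.79 TPM in the 4 libraries. Summed over the 20 membrane enzymes, the level was 2692 and 1820.0 TPM in depleted libraries and 1722 and 2215 TPM in controls, so that these sums overlapped while those of the cytosolic enzymes and regulators did not.

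Sterol genes are known for promoters in which SREBP sites stand beside CCAAT boxes, bound by the factor NF-Y. The 250 bases upstream of the RefSeq start (GRCh38.p14) are shown for the 6 genes past the test that have an entry, to set those that rose beside those that fell, and for SREBF2. Capitals mark CCAAT on either strand (read as ATTGG on the other) and an SREBP motif, TCACNCCAC, on either strand. Overlapping matches were counted each, and coordinates and strand are those of the printed bases, 5′ to 3′ along the gene.
TM7SF2, chr11:65111622-65111871, plus strand: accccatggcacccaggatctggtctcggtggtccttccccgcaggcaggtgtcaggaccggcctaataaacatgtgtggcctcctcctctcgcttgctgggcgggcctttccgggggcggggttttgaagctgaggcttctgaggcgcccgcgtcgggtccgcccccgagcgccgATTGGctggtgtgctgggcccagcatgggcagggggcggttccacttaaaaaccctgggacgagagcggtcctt
SCAP, chr3:47475942-47476191, minus strand: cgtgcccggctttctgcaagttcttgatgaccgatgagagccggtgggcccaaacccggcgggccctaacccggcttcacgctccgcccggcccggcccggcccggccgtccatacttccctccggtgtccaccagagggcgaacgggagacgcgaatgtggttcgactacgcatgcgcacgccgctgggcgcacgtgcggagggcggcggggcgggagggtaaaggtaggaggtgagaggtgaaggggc
INSIG2, chr2:118088221-118088470, plus strand: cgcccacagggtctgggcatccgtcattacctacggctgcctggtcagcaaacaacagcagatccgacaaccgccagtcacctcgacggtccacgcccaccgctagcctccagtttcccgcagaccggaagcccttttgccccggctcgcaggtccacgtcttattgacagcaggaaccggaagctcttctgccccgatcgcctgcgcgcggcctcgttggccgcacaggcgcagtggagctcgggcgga
MVD, chr16:88663092-88663341, minus strand: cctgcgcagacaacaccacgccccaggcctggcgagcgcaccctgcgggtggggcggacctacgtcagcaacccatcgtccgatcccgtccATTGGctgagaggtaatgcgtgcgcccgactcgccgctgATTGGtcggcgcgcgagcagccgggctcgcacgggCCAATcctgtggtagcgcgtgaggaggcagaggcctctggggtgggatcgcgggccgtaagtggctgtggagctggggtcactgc
ACLY, chr17:41919023-41919272, minus strand: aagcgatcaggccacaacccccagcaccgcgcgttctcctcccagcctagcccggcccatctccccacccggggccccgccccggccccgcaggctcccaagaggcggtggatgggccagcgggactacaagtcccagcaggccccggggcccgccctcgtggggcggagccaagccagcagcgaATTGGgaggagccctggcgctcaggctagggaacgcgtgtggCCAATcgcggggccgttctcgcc
NSDHL, chrX:152830813-152831062, plus strand: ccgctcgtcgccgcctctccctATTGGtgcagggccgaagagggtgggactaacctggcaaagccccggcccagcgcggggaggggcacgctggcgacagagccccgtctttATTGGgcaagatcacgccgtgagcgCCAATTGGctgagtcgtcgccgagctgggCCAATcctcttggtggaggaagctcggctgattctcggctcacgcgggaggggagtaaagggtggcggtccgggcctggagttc
SREBF2, chr22:41832855-41833104, plus strand: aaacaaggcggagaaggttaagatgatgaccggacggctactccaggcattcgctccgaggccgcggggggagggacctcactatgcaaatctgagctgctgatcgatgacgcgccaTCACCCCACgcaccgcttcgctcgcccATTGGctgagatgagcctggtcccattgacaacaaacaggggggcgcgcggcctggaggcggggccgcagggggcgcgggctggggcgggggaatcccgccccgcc

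All 3 genes shown that fell held CCAAT in this window, with 3 matches in MVD, 2 in ACLY and 5 in NSDHL. Of the 3 that rose, 1 did, TM7SF2, with 1 match. FASN, which also fell, has no entry. Of the 25 genes with an entry that did not pass, 18 held CCAAT (72%). Among the 31 of the 35 genes with an entry, 22 held CCAAT (71.0%), against 37.0% of the 27305 genes in the promoter table. Where a gene has several starts in the table, it counted if any window held the motif, and the window shown is the first. TCACNCCAC was in 2 of the 31, SREBF2 and ACSL1, and in 1.09% of all genes, and in 0 of the 6 genes past the test that are shown. No other SREBP pattern was searched, so a window without TCACNCCAC may still hold an SREBP site. A match is a run of letters and not a measured binding site, and the footprints give no measure of promoter activity.

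Most of the enzymes differed between the depleted libraries in the same direction. Depleted replicate 2 was below depleted replicate 1 in 29 of the 35 genes (82.9%), beside 61.1% of all tested genes. By role it was lower for 9 of 10 cytosolic enzymes, 18 of 20 membrane enzymes and 2 of 5 regulators. The median difference on the log2(TPM + 1) scale, replicate 2 minus replicate 1, was -0.50 for the 35 and -0.18 for all tested genes. It was -1.63 for NSDHL, -1.50 for ACSL4, -1.38 for ACSL3, -1.28 for HMGCS1 and -1.25 for SQLE, and 0.90 for INSIG2. The controls differed as well, with replicate 2 above replicate 1 in 27 of the 35 genes, 19 of them among the 20 membrane enzymes, beside 49.2% of all tested genes. Of the line markers, KRT8, KRT18, VIM and KRT19 were also 2.86- to 2.92-fold lower in depleted replicate 2 than in depleted replicate 1. EPCAM was 1.26-fold lower there, while KRT7 was higher (2.62 TPM in depleted replicate 1 and 3.60 TPM in replicate 2). The part of these markers in this spread was not tested.

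**Figure D3:**
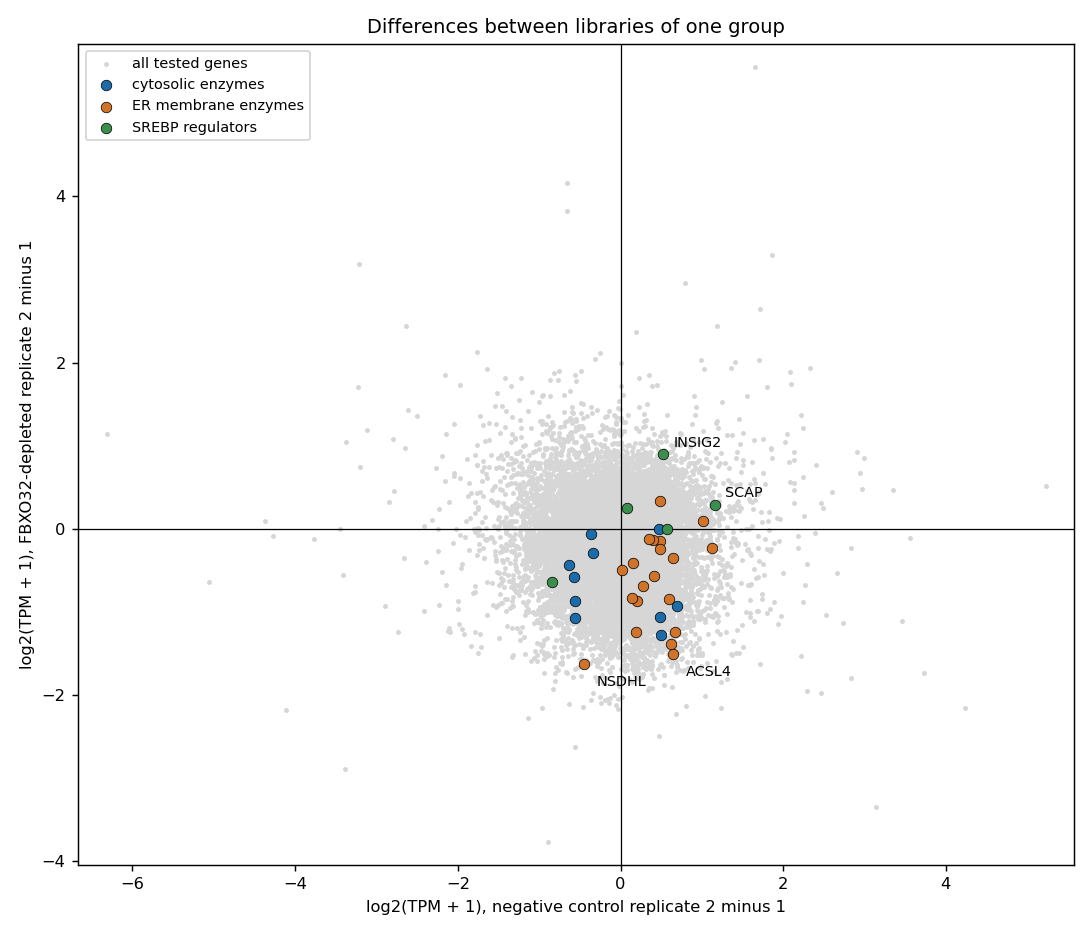
Difference in log2(TPM + 1) between the 2 FBXO32-depleted libraries (vertical) against that between the 2 negative control libraries (horizontal), for the 35 genes by role over all tested genes in grey. Most enzymes lie below the horizontal line, with depleted replicate 2 lower in 29 of 35 genes, and INSIG2 (0.90) lies above it.

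Fold changes across all tested genes fell with coding length, and this bears on the longest genes of the pathway. Across genes, the Spearman correlation of the log2 fold change with the longest coding length was -0.46 over 11525 tested genes and -0.43 over the 35. These genes share the same 4 libraries, so the correlation is a description. The coding length is 7533 nt for FASN, 7149 nt for ACACA, 3303 nt for ACLY and 3837 nt for SCAP, against a median of 1257 nt for the 35 and 1377 nt for all tested genes. With the trend removed from each library, 4 of the 7 calls remained (TM7SF2, SCAP, MVD and NSDHL), and 22.0% of all genes were called. The log2 fold change of FASN was then -0.31 (limma adjusted p = 0.531), that of ACLY -0.55 (0.296) and that of INSIG2 0.97 (0.0642). ACACA passed upward in that fit (1.19, adjusted p = 0.0219), as did SREBF2 (1.64, 0.00274) and SREBF1 (1.04, 0.0408). The fall of FASN and ACLY is thus a fall in TPM that did not pass relative to genes of like length, while the rise of SCAP was larger there (2.38, adjusted p = 0.000355). That setting takes no part of the trend to come from the depletion, and whether it does was not tested.

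**Figure D4:**
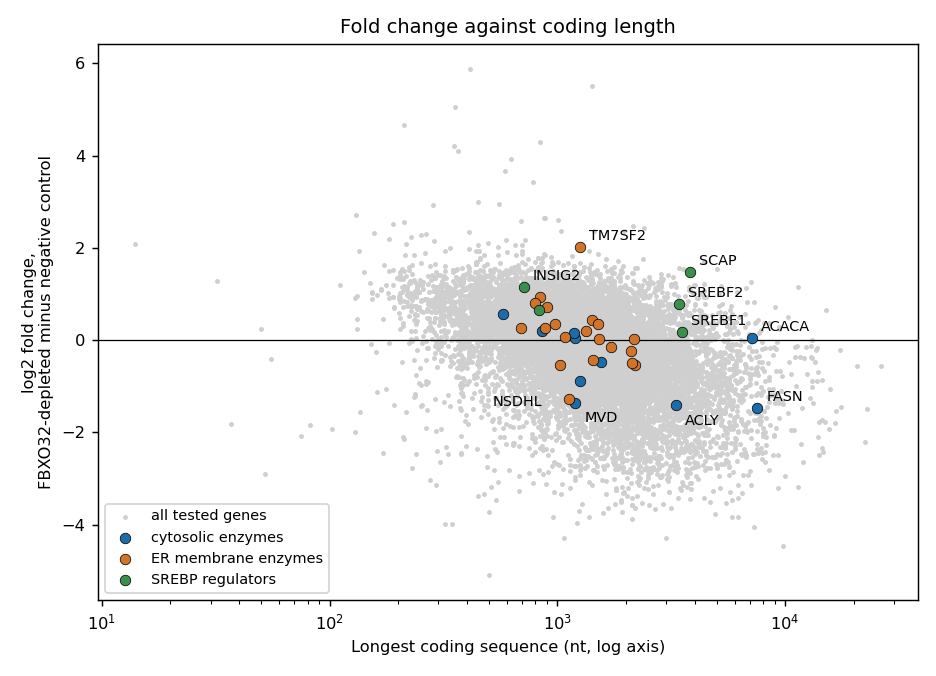
Log2 fold change, FBXO32-depleted minus negative control, against the longest coding sequence in nt on a log axis, for the 35 genes by role over all tested genes in grey. Among the long genes ACLY and FASN lie below 0 (-1.397 and -1.48), while SCAP, SREBF2, SREBF1 and ACACA lie above it (1.48, 0.78, 0.17 and 0.04).

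**Figure D5:**
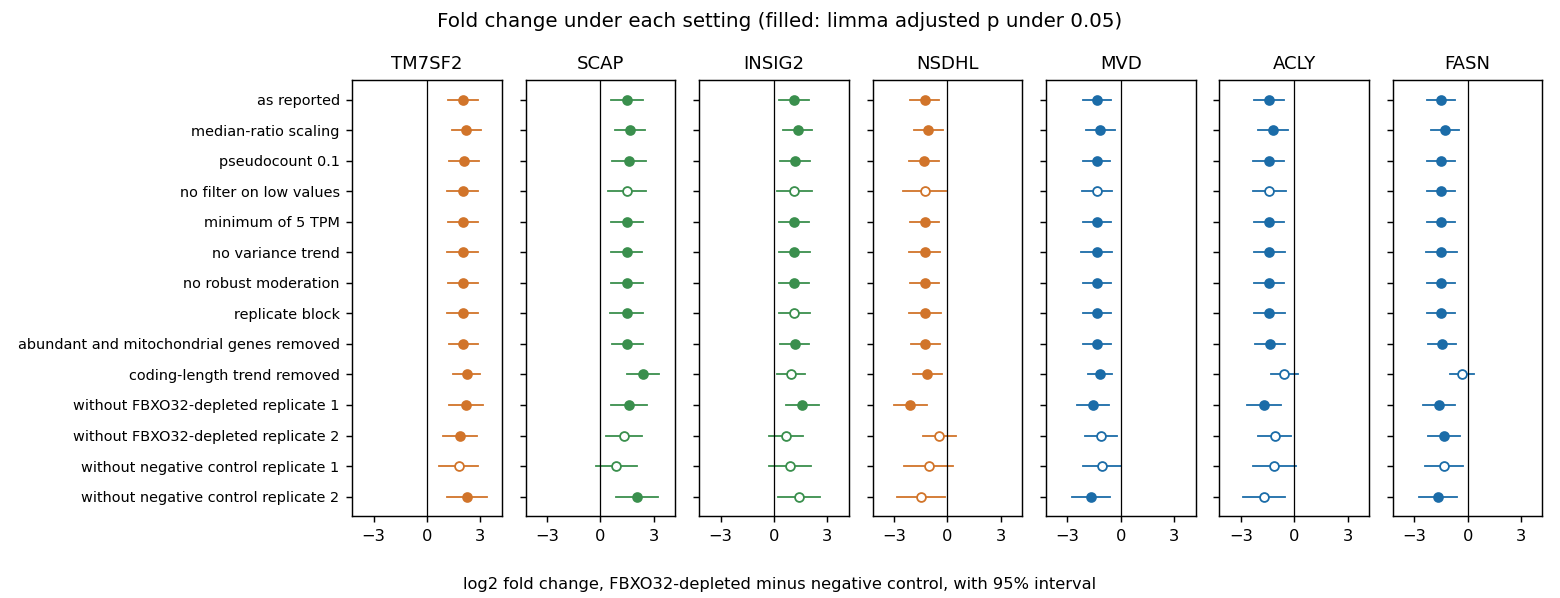
Log2 fold change with its 95% interval of the 7 genes past the test, under the reported fit and each alternative, filled where the limma adjusted p is under 0.05. TM7SF2 is filled in all but the fit without negative control replicate 1 (1.77), and FASN and ACLY are closest to 0 with the coding-length trend removed (-0.31 and -0.55).

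Other genes of sterol and fatty acid supply followed no common direction by the test, although more of their fold changes were positive than negative. Of 47 listed, 37 were tested, of which 1 rose (2.70%), 1 fell (2.70%) and 35 were not past the test, around a median of 0.31 on the log2 scale. Over all tested genes 6.21% were higher and 19.5% lower. Fold changes of the 37 were positive in 24 and negative in 13, beside 5076 and 6547 over all tested genes. By unadjusted p under 0.05, limma gave 8 of the 37, beside 37.3% of all tested genes. ERG28, which in yeast holds the C4 demethylation enzymes together, had 211.6 and 264.5 TPM in depleted libraries and 94.96 and 126.0 TPM in controls. Its log2 fold change was 1.11 ± 0.39 (SE, limma adjusted p = 0.0219), and it rose beside TM7SF2 while NSDHL fell. OSBP, a carrier that exchanges sterol between ER and Golgi, had 10.2 and 4.63 TPM in depleted libraries and 20.2 and 13.9 TPM in controls, a log2 fold change of -1.16 ± 0.46 (adjusted p = 0.0469). Both calls ended without the filter on low values (0.0753 for ERG28 and 0.142 for OSBP) and without negative control replicate 1 (0.324 and 0.435), among other alternatives. LBR, named after its values were seen because it carries the same C14 reductase activity as TM7SF2, had 23.5 and 14.1 TPM in depleted libraries and 19.5 and 24.7 TPM in controls. The 16 tested genes of fatty acid supply and elongation gave 0 calls by limma, with 2 at an unadjusted p under 0.05, beside 37.3% of all tested genes.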

How the data were processed

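Ribosome footprints were measured in 4 libraries of PANC-1 cells. Per the labels' protocols, cells at 80% to 90% confluency received cycloheximide (100 µg/mL) for 2 min, nuclease digestion with RNase I plus DNase I lasted 45 min, and fragments over 17 nt were kept and cleared of rRNA. The authors deposited TPM values per Ensembl gene, per the file headers, and each column sums to 1000000. Listed without roles in the submitters' processing notes are RSEM, STAR, Bowtie2 2.2.8, fastp, DESeq2 and GRCh38. Reads and depth are unknown from TPM.

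Symbols, positions and coding lengths came from GENCODE v29 and promoters from RefSeq. The test was limma 3.58.1 in R 4.3.3, with variance trend and robust moderation, on log2(TPM + 1) where a gene reached 1 TPM in 2 or more libraries. P-values were Benjamini-Hochberg adjusted over all 11623 tested genes with 0.05 as threshold. Only 2 residual degrees of freedom remain, and the spread of 10272 genes was taken wholly from the trend. In data simulated for this comparison over 11623 genes, limma called 75 of 100 genes changed by log2 2, 6 of 100 changed by log2 1, and 9 of 11423 unchanged ones. The simulated noise was independent and had the moderated spread that limma itself assumes. Far fewer genes were changed in it than the 2990 called in the data. The simulation therefore cannot show how often limma errs or misses a change in these data.

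By rule, values per library were to be given for the genes past the test, the regulators and the most abundant gene of each class and pathway, and of the other pathway genes for those past the test. Values of the remaining listed genes are given beyond that rule. The members and lists were chosen with earlier results of these data known. Alternatives were another scaling, pseudocount (0.1), filters (none, 5 TPM), no variance trend, no robust moderation, a replicate block, leaving out the top 20 genes by abundance and those of the mitochondrial genome, removal of the coding-length trend (loess, span 0.5), and leaving out each library.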

Additional observations from a re-analysis of the deposited data

How the results depend on the processing

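Over all tested genes, those higher numbered 1251 with median-ratio scaling, 207 without the filter on low values and 1100 with the coding-length trend removed, against 722 as reported. Those lower numbered 1322 without the filter and 1430 with the trend removed, against 2268. Leaving out 1 library gave 37 to 646 higher and 347 to 2389 lower. Of the 35 genes, 1 was higher and 1 lower without the filter, and 5 were higher and 2 lower with the trend removed. Leaving out 1 library gave 0 to 3 higher and 0 to 6 lower. Of the other pathway genes, those higher numbered 5 with scaling, 0 without the filter and 6 with the trend removed, and those lower numbered 0 under these 3 settings, without robust moderation and with the block. Leaving out 1 library gave 0 to 2 higher and 0 to 3 lower.

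The replicate block gave 489 genes higher and 1930 lower, and of the 35 it ended the call of INSIG2 (adjusted p = 0.0559). Same-numbered libraries share only a number: their deviations correlated at -0.0488 over all tested genes and at 0.21 over the 35.

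Signs turned for SQLE (0.039 with scaling, 0.30 with the trend removed), and with the trend removed for LSS (0.10), ACSL1 (0.36) and ACSL4 (0.11). Leaving out 1 library, the log2 fold change ranged from -0.42 to 0.51 for ACAT2, -1.11 to 0.17 for HMGCS1, -0.37 to 0.70 for MVK, -0.33 to 0.73 for IDI1, -0.14 to 0.22 for ACACA, -0.86 to 0.0065 for FDFT1, -0.78 to 0.46 for SQLE and -1.15 to 0.088 for LSS. It ranged from -0.32 to 0.37 for CYP51A1, -0.35 to 0.50 for SCD, -0.23 to 0.60 for FADS2, -0.52 to 0.0501 for ACSL1, -0.66 to 0.72 for ACSL3, -1.25 to 0.25 for ACSL4 and -0.25 to 0.59 for SREBF1. The cause of these changes was not tested. TPM keeps no depth, so the counting error of low genes such as HSD17B7 and ACSL1 is unknown, and with 1 library left in a group that library is assumed to vary like the others.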
